A study of Macaca radiata with 6 samples.

Results

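Chemokines, interleukins and interferons and the receptors of these proteins were followed in the corpus luteum (CL) of the bonnet monkey 24 h after LH was withdrawn. The genes were taken by name: every gene whose single symbol in the platform annotation begins as a CCL, CXCL, CX3C or XC chemokine, a CCR, CXCR or XC receptor, an interleukin (IL followed by a digit) or an interferon (IFN). This gave 124 genes out of 14132 with a probe set on the array. The rule itself uses no measured value. Where several probe sets stand for a gene, the brightest over the 6 arrays was used. The deposited values carry no detection calls, so a gene was called dim when its mean log2 signal lay at or under the 40th percentile of all probe sets (7.43). Of the 124 cytokine genes, 81 lay above this limit (65.3%) and 43 did not, against 77.3% above it among all genes. IL20RA (mean log2 signal 7.47) and IL1A (7.48) were just inside the limit and CCL1 (7.42) was just outside.

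CET animals received Cetrorelix, an antagonist of the GnRH receptor that cuts off pituitary LH and with it progesterone (P4), as 1 subcutaneous dose of 150 µg/kg on day 7 of the luteal phase. VEH animals received 5.25% glucose on the same day. All were adult female monkeys of the species Macaca radiata with no genetic change, and total RNA of the CL was read on 3 arrays a group that carry probes for the rhesus macaque. The design states that both treatments were given to the same monkeys, but the sample labels do not pair the arrays, and nothing in them says whether replicates within a group came from separate animals, so p-values measure only the spread between these samples.

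Chemokines are small secreted proteins that draw leukocytes along a gradient through G protein-coupled receptors, and interleukins and interferons carry signals between immune cells and the tissue through receptors that mostly use the JAK kinases and STAT factors or, for the interleukin 1 family, the NF-kB pathway. The regressing CL is known as a site of leukocyte entry, and macrophages, T cells and neutrophils take part in the breakdown of luteal tissue in several mammals. Luteal, endothelial and fibroblast cells also make chemokines, so these transcripts are not those of leukocytes only. In RNA of a whole tissue, more cells of a type and more RNA per cell cannot be told apart.

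The arrays were not equal in quality. The 3' signal of GAPDH was 143 times its 5' signal in CET replicate 2, while the ratio was 1.79 to 7.31 elsewhere. VEH replicate 4 also stood apart, with ratios of 22.4 for ACTB and 9.56 for EF1A, beside 37.2 and 42.2 in CET replicate 2 and at most 9.42 and 4.68 on the other arrays. The labelled tissue was seen in its markers: STAR (mean log2 signal 13.75 after CET and 15.24 after VEH) and HSD3B2 (14.20 and 14.68), which serve luteal steroid production, were bright in both groups. All 6 luteal markers had a lower mean after CET (median log2 fold change -1.09), where 54.7% of all genes were lower and 45.3% higher. STAR, at -1.49, was lower on every CET array and was the only 1 of them with an unadjusted p under 0.05. Of 10 endothelial markers 8 were lower (median -0.38), and their summed signals overlapped (15923 to 26552 after CET and 16796 to 23205 after VEH). CDH5, the junction cadherin, stood at -1.52 with overlap, and PECAM1 was level (-0.036, SE 0.49). Of the leukocyte lists, 4 of 7 T cell genes were higher and 3 lower (median 0.12). Their summed signals were 3296 to 4997 after CET and 2421 to 3187 after VEH, but 2175 to 3246 and 1882 to 2925 without ZAP70, the T cell kinase. Of 7 neutrophil genes, 4 above the dim limit, 6 were higher (median 0.59). The defining markers differed in sign, with CSF3R at 0.33 (SE 0.69) and S100A8 at -0.41 (SE 0.81). Not checked without single genes, the summed signals of this list (1962 to 3272 and 1633 to 1794) did not overlap between groups. Those of 13 macrophage genes (14937 to 16666 and 8739 to 15602), 5 B cell genes (1140 to 2185 and 1117 to 1180), 7 NK cell genes (8927 to 16261 and 13112 to 15506) and 7 genes common to leukocytes (3016 to 4682 and 3392 to 5289) overlapped. Among defining markers, CD3E, CD3D and CD163 were not analysed here, and CD68, CSF1R, NKG7, MS4A1, CSF3R, S100A8 and PTPRC lay above the dim limit. None of the listed macrophage, T, NK, B or neutrophil genes had an unadjusted p under 0.05, and CD74, the invariant chain of MHC class II, was lower after CET (log2 fold change -1.65, unadjusted p = 0.032). The part of cell makeup or RNA quality in the values that follow was not tested.

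The cytokine genes lay, on the whole, on the higher side after CET. Their median log2 fold change, CET minus VEH, was 0.41, against -0.084 over all 14132 genes. The mean was higher after CET in 85 of the 124 (68.5%), where 45.3% of all genes were higher, and lower in 39 (31.5%), where 54.7% of all genes were lower. A difference of at least 1.5-fold was found upward in 46 (37.1%), against 18.6% of all genes, and downward in 19 (15.3%), against 24% of all genes. Of the 46, 20 were dim. The 3 CET arrays lay above the 3 VEH arrays without overlap in 12 cytokine genes (9.68%), against 5.07% of all genes, and below them in 3 (2.42%), against 6.45% of all genes.

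No single gene passed the test. By limma with Benjamini-Hochberg adjustment, 0 of 52707 probe sets had an adjusted p under 0.05 (0%), and the smallest adjusted p of a cytokine gene was 0.83. At an unadjusted p under 0.05, 8 cytokine genes were higher (6.45%), where 2.02% of all genes were, and 1 was lower (0.806%), where 3.01% of all genes were. The unadjusted p-values given below for single genes come from limma, brackets hold the log2 fold change with its standard error (SE), and none of these genes is called changed. An exact permutation test of 3 against 3 arrays cannot go below p = 0.1. The replicates of cytokine genes were also more scattered after CET, with a median SD of 0.897 on the log2 scale, than after VEH, with 0.681 (0.739 and 0.483 over all genes).

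**Figure D1:**
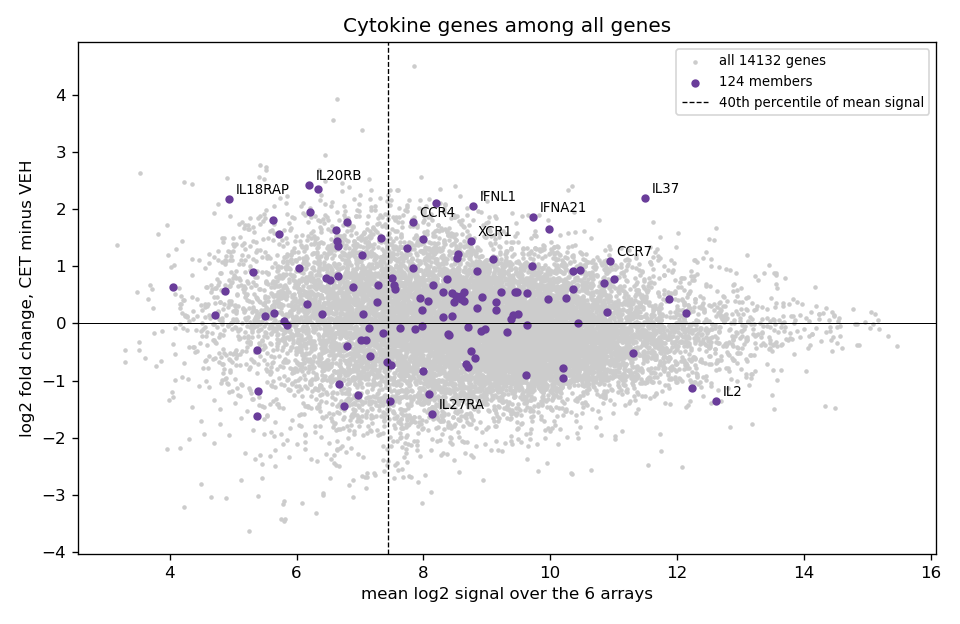
Log2 fold change (CET minus VEH) against mean log2 signal over 6 arrays for all 14132 genes (grey) and the 124 cytokine genes (purple), with the dim limit at 7.43 as a dashed line. The cytokine genes range from -1.62 to 2.42, and their median is 0.41 where that of all genes is -0.084.

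At the probe sets that were read, the higher side held at every brightness. Above the dim limit, 56 of 81 cytokine genes were higher (69.1%), against 42.3% of all genes above it, with medians of 0.42 and -0.13. Among the 24 with a mean log2 signal over 9.5 it was 70.8%, against 37% of all genes that bright, with medians of 0.44 and -0.20. The 48 receptors (median 0.39) and the 76 other genes (0.44) lay close together.

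It was also seen on each CET array. Relative to the VEH mean of each gene, the median of the cytokine genes was 0.30, 0.41 and 0.54 in CET replicates 1, 2 and 3, while that of all genes was 0.041, 0.036 and -0.16. In VEH replicates 4, 5 and 6, which make up that mean, it was -0.031, -0.016 and 0.13. The array with the highest of the 6 values was CET replicate 1 for 28 cytokine genes, CET replicate 2 for 30 and CET replicate 3 for 32, and each VEH array for 10 to 14. The lowest value fell on CET replicates 1, 2 and 3 for 18, 11 and 24 cytokine genes. On VEH replicates 4, 5 and 6 it fell for 27, 24 and 20. These counts were not taken over all genes, whose replicates were also more scattered after CET (median SD 0.739) than after VEH (0.483).

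**Figure D2:**
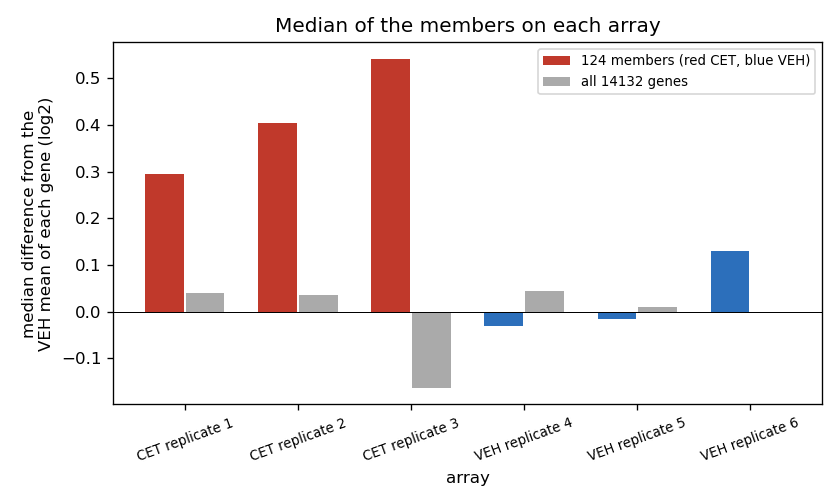
Median difference of the 124 cytokine genes (coloured bars, red CET and blue VEH) and of all 14132 genes (grey) from the VEH mean of each gene, in log2 units, for each of the 6 arrays. The cytokine genes stand at 0.30, 0.41 and 0.54 on the CET arrays and between -0.031 and 0.13 on the VEH arrays.

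The shift depended on which probe set was read. For 46 of the cytokine genes the array holds more than 1 probe set. Their 70 dimmer probe sets had a median of -0.20 and 41.4% of them were higher after CET, close to the dimmer probe sets of all genes (median -0.22, 40.2%). This was not limited to low signals. Of the 70, 29 lay above the dim limit, with a median of -0.34, against -0.31 for such probe sets of all genes. In 34 of the 70 (48.6%) the sign was opposite to that of the probe set that was read, against 44.2% over all genes. With the mean over all probe sets of a gene, the median was 0.23 and 65.3% of cytokine genes were higher, against -0.10 and 43.4% for all genes. Of the 124 genes, 11 were read at a probe set marked as sharing probes with other transcripts. The 78 cytokine genes with a single probe set had a median of 0.44, and 57 of them were higher, against a median of -0.044 and 3685 of 7757 among all genes with a single probe set.

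By family, the interferons had the highest median (1.56), and the CXC, CX3C and XC chemokines (-0.15) and the receptors of the interleukin 6 and 12 family (-0.048) were the only classes of the 15 with a median under 0. With 3 to 21 genes a class these medians are a description. The same holds for the counts of higher genes by class given below. Over all genes 45.3% were higher, and over all cytokine genes 68.5% were.

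**Figure D3:**
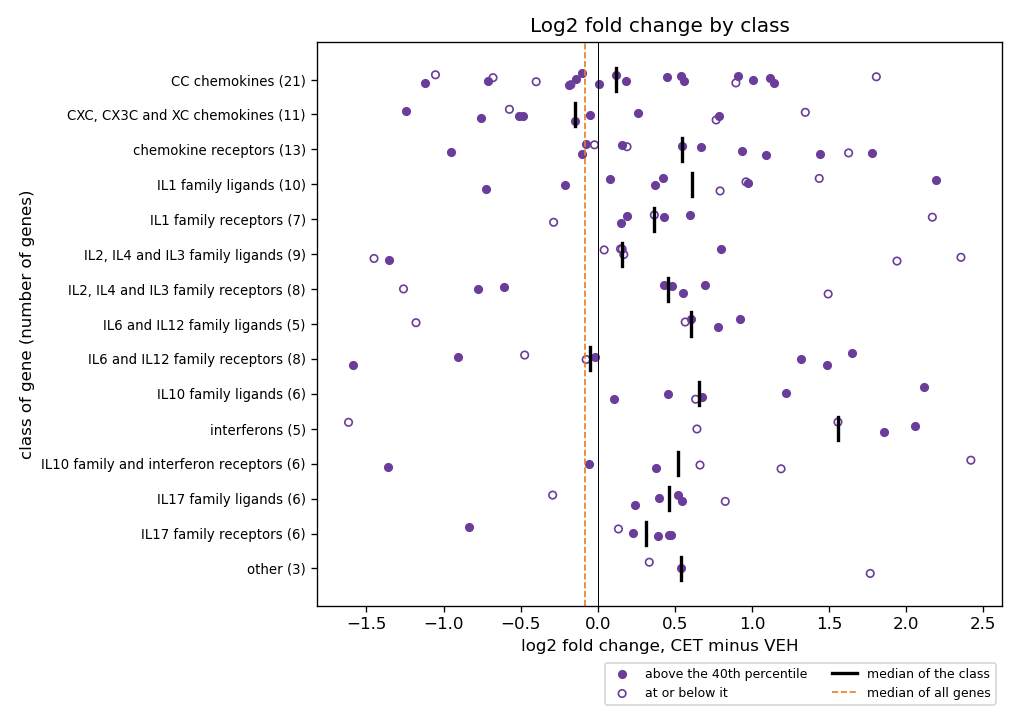
Log2 fold change (CET minus VEH) of each of the 124 cytokine genes in 15 classes, with filled points above the dim limit and open points at or below it. Black ticks are class medians, from -0.15 for CXC, CX3C and XC chemokines to 1.56 for the interferons, and the dashed line is the median of all genes (-0.084).

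Signal values below are normalized log2 signals, in the order CET replicates 1, 2 and 3 and then VEH replicates 4, 5 and 6. A level can be compared between arrays for a gene but not between genes.

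Among the chemokines proper, no CC chemokine reached p under 0.05 at the probe set that was read. Of 21 genes of this class, 15 above the dim limit, 12 were higher and 9 lower after CET, with a median of 0.12 and a range from -1.12 to 1.81. CCL20, which draws dendritic cells and Th17 cells, had signals of 9.09, 8.37 and 9.86 after CET and 7.93, 7.98 and 7.98 after VEH. The groups did not overlap and the VEH arrays were nearly level (log2 fold change 1.14, SE 0.57). CCL28, a chemokine of mucosal epithelia, had 9.37, 10.92 and 10.35 after CET and 9.11, 9.18 and 9.32 after VEH. The lowest CET array was only 0.04 above the highest VEH array (log2 fold change 1.01), and the other, dim probe set of CCL28 gave -1.13. CCL3, a monocyte attractant made by macrophages, had 9.92, 8.85 and 10.22 after CET and 7.73, 8.58 and 9.32 after VEH. These groups overlapped (1.12, SE 0.59), and CCL3 was read at a probe set marked as sharing probes with related transcripts.

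CCL2, which draws monocytes, had 7.65, 8.68 and 8.56 after CET and 8.23, 8.77 and 8.45 after VEH. The log2 fold change of -0.18 was under its SE of 0.57. CCL5, made by T cells and platelets, had 9.49, 10.36 and 9.88 after CET and 10.21, 9.14 and 8.76 after VEH (0.54, SE 0.52). It was read at a probe set marked as sharing probes with other transcripts, and its other, dim probe set gave -0.23. CCL18, a product of alternatively activated macrophages, was among the brightest cytokine genes and was lower after CET on average (-1.12, SE 0.78), mostly through a value of 14.61 in VEH replicate 6. Its second probe set gave 0.41. CCL25, a chemokine of thymus and gut, was bright and gave 0.18 at the probe set that was read. At the 3 dimmer probe sets of CCL25, all above the dim limit, it was lower (-0.45, -1.53 and -0.86). The one at -1.53 had an unadjusted p of 0.015 by limma. The CCL25 probe set that was read is marked as sharing probes with other transcripts. CCL23, a dim member, stood at 1.81 (SE 1.10).

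CCL19 and CCL21 are the ligands of CCR7 that lead cells into lymph vessels and lymph nodes. CCL21 had 10.91, 10.79 and 10.73 after CET and 11.18, 10.18 and 8.34 after VEH (0.91, SE 0.63), so the VEH arrays spread widely around nearly level CET arrays. The second probe set of CCL21 gave 1.35. CCL19 was dim, at 5.66, 5.88 and 5.75 after CET and 4.42, 5.72 and 4.46 after VEH (0.90, SE 0.81). The CC chemokines not named so far (CCL1, CCL4L1, CCL8, CCL11, CCL13, CCL14, CCL16, CCL17, which binds CCR4, CCL24, CCL26 and CCL27) ranged from -1.05 to 0.56.

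Of the 11 CXC, CX3C and XC chemokines, 4 were higher and 7 lower after CET, near the share of lower genes over the whole array (54.7%), and none reached p under 0.05. CXCL12, which holds CXCR4-bearing cells in tissues, had 10.88, 11.43 and 10.86 after CET and 12.31, 11.05 and 11.35 after VEH (-0.51, SE 0.45). Its dim probe sets gave 0.88 and -1.25. CXCL6, a neutrophil attractant, had 8.19, 5.33 and 8.87 after CET and 7.62, 9.65 and 8.85 after VEH (-1.24, SE 0.92). The probe set read for CXCL6 is marked as sharing probes with other transcripts. CXCL8, the main neutrophil attractant of primates, was dim at 6.10, 8.93 and 6.95 after CET and 5.32, 6.04 and 6.58 after VEH, with overlap (1.35, SE 0.90). So these chemokines of neutrophils had opposite signs and neither stood apart from its spread. CX3CL1, the membrane-bound chemokine of endothelium, had 9.65, 7.81 and 8.83 after CET and 9.58, 8.80 and 5.57 after VEH. Its log2 fold change of 0.78 rested on VEH replicate 6 and was -0.42 without it. The interferon-induced CXCL9, CXCL10 and CXCL11 ranged from -0.76 to -0.05, and CXCL13, CXCL16, CXCL17 and XCL1, the ligand of XCR1, from -0.57 to 0.77.

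The chemokine receptors held 3 of the 8 cytokine genes that were higher at p under 0.05, which 2.02% of all genes were. Of 13 genes, 10 above the dim limit, 9 were higher and 4 lower, with a median of 0.55. CCR4, the receptor of CCL17 and CCL22 on Th2 and regulatory T cells, had 8.45, 8.74 and 8.99 after CET and 7.06, 6.92 and 6.87 after VEH. The groups lay 1.39 apart, the widest gap of the 15 cytokine genes without overlap (log2 fold change 1.78, SE 0.60, unadjusted p = 0.013), although the mean of the VEH group (6.95) was itself under the dim limit. It stayed between 1.66 and 1.95 when any single array was left out, and its p was under 0.05 in all 15 alternative analyses. XCR1, the XCL1 receptor of cross-presenting dendritic cells, had 8.73, 10.18 and 9.51 after CET and 7.40, 8.39 and 8.32 after VEH, without overlap (1.44, SE 0.58, unadjusted p = 0.030). That p rose to 0.13 without CET replicate 2, 0.062 without CET replicate 3 and 0.10 without VEH replicate 4. CCR7, which guides T cells and mature dendritic cells to lymph nodes, had 10.90, 11.49 and 12.06 after CET and 10.87, 10.15 and 10.15 after VEH. The lowest CET array was 0.03 above VEH replicate 4 (1.09, SE 0.45, unadjusted p = 0.032), and p lay between 0.10 and 0.11 without CET replicate 3, VEH replicate 5 or VEH replicate 6, and was 0.070 with signals as deposited and 0.16 with array medians subtracted, where the log2 fold change was 0.68.

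The other chemokine receptors did not stand apart. CXCR3, the receptor of CXCL9 to CXCL11 on effector T cells, stood at 0.94 (SE 0.59), with the highest value, 12.29, in CET replicate 2. CCR2, the monocyte receptor of CCL2, was dim, at 5.67, 8.59 and 8.04 after CET and 5.55, 6.86 and 5.01 after VEH (1.63, SE 0.95). CXCR4, the CXCL12 receptor, had 9.91, 8.63 and 10.67 after CET and 9.65, 11.54 and 10.86 after VEH (-0.95, SE 0.62). CXCR4 was -0.41 without CET replicate 2, and its ligand CXCL12 was -0.13 without VEH replicate 4. CX3CR1, the fractalkine receptor of monocytes and macrophages, was the steadiest of those named, at 8.94, 9.06 and 8.75 after CET and 9.19, 8.87 and 9.0 after VEH (-0.10, SE 0.48). CCR1, CCR3, CCR6, CCR8, CCR10 and CXCR6 ranged from -0.08 to 0.67. Of the T cell markers on the same arrays, 4 of 7 were higher (median 0.12), and their part in the receptor values was not tested. Atypical receptors that bind chemokines without classical signalling (ACKR1, ACKR3 and ACKR4) were listed with CMKLR1, CCRL2 and RARRES2 of the chemerin system. Of these 6, 1 was higher and 5 lower (median -0.43), none with p under 0.05, where 54.7% of all genes were lower. ACKR4 (-0.010, SE 0.98, dim) and CMKLR1 (-0.14, SE 0.85) were near level, and CCRL2 (0.56, SE 0.51) was higher on every CET array. ACKR1, which carries chemokines across endothelium, stood at -1.09 and ACKR3, the second receptor of CXCL12, at -0.78.

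**Figure D4:**
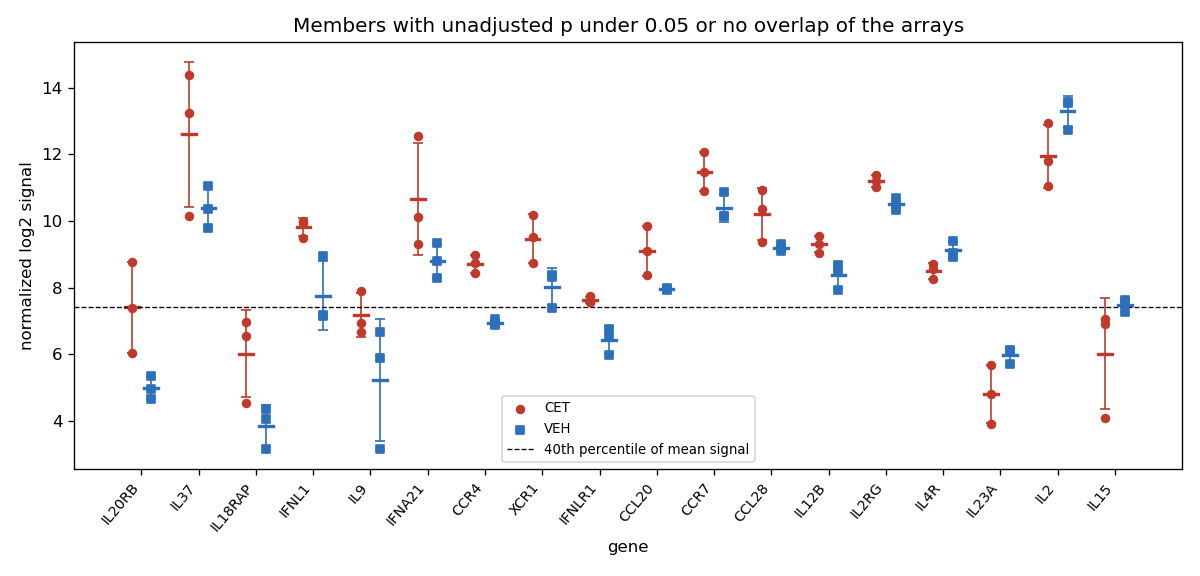
Normalized log2 signal of the 18 cytokine genes with unadjusted p under 0.05 or without overlap between groups, for each CET array (red circles) and VEH array (blue squares), with the mean and SD of 3 arrays as bars. CCR4 shows the widest gap between groups (1.39), while the CET points of IL37 and IFNA21 reach down into the VEH points.

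In the interleukin 1 family, 8 of 10 ligands were higher after CET (median 0.61). IL37, which dampens inflammation, had 10.16, 13.26 and 14.37 after CET and 10.36, 9.80 and 11.05 after VEH. CET replicates 2 and 3 were far above all VEH arrays and CET replicate 1 lay among them (2.20, SE 0.86, unadjusted p = 0.026). Its other probe sets gave -0.51 and -0.27, and the one that was read is marked as shared with other transcripts. Leaving out CET replicate 3 moved the value to 1.35 and p to 0.13, and leaving out CET replicate 1 moved the value to 3.31. The p of IL37 was under 0.05 in only 7 of 15 alternative analyses. It was 0.49 with means over probe sets and 0.17 by Student's t-test. IL1B, the main inflammatory member, had 8.72, 9.70 and 9.57 after CET and 9.08, 8.90 and 8.89 after VEH (0.37, SE 0.50). The other probe sets of IL1B, both dim, gave 0.79 and 0.69. IL1RN, the natural antagonist of IL1B, was level at the probe set that was read (0.08, SE 0.46). Its other probe sets gave -0.46, above the dim limit, and -1.57, under it. IL18, which drives interferon gamma in T and NK cells, had 8.35, 8.04 and 10.02 after CET and 7.18, 8.60 and 9.35 after VEH (0.42, SE 0.73). IL33, an alarm signal released by stromal and endothelial nuclei, had 8.40, 7.36 and 9.14 after CET and 7.32, 8.34 and 9.87 after VEH (-0.21, SE 0.75). So none of the classical inflammatory members, IL1B, IL18 or IL33, stood apart from its spread, and the same holds for IL1A (-0.73). IL36A, IL36B, IL36G and IL36RN, of which only IL36A was above the dim limit, ranged from 0.79 to 1.44.

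Of 7 receptors of that family, 6 were higher. IL18RAP, the signalling chain of the IL18 receptor, was dim, with 6.55, 4.54 and 6.98 after CET and 4.35, 3.15 and 4.06 after VEH, without overlap (2.17, SE 0.90, unadjusted p = 0.034). Its p was 0.083 without CET replicate 1, 0.12 without CET replicate 3, 0.11 without VEH replicate 5 and 0.059 without VEH replicate 6. IL1RL1, the receptor of IL33, was bright, with 11.48, 12.24 and 12.53 after CET and 10.06, 12.46 and 12.46 after VEH. Its 0.43 came from the single low value in VEH replicate 4 and was -0.36 without that array. Its 3 other probe sets gave -0.34, -1.54 and -0.28. IL1R2, the decoy receptor of IL1, stood at 0.19 (SE 0.49). IL1RAP, IL1RL2, IL1RAPL1 and IL1RAPL2 ranged from -0.29 to 0.60. Of 16 genes of NF-kB and interleukin 1 receptor signalling, 10 were higher and 6 lower (median 0.16), and 0 had p under 0.05. TAB1 (0.94), a partner of the kinase TAK1, and NFKBIA (1.45), the inhibitor that NF-kB itself induces, were higher on every CET array than on any VEH array. Over all genes, 5.07% were higher without overlap. NFKBIA had 9.36, 9.61 and 8.73 after CET and 6.17, 8.53 and 8.64 after VEH, so its gap was small and VEH replicate 4 was far below the rest.

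The growth factors of lymphocytes were mostly dim, with 2 of 9 ligands of the IL2, IL4 and IL3 families above the limit. At the probe sets that were read, IL2, the T cell growth factor, was the only cytokine gene that was lower at p under 0.05. It had 12.95, 11.07 and 11.80 after CET and 13.55, 13.58 and 12.75 after VEH, and CET replicate 1 lay above VEH replicate 6 (-1.35, SE 0.51, unadjusted p = 0.022). The other probe sets of IL2 had the same sign (-1.60 and -0.25). The p of IL2 was 0.081 without CET replicate 2, 0.051 without CET replicate 3, 0.077 without VEH replicate 4 and 0.072 without VEH replicate 5. With all arrays it was 0.067 without the intensity trend, 0.092 by Student's t-test and 0.094 with means over probe sets. It was under 0.05 in 8 of 15 alternative analyses. IL15, which keeps NK and memory T cells alive, was dim, with 4.10, 7.08 and 6.90 after CET and 7.26, 7.53 and 7.64 after VEH. The groups did not overlap and CET replicate 1 was far below the rest (-1.45, SE 0.92). Without that array it was -0.48, and the other probe sets of IL15, both dim, gave 0.40 and -0.18. IL7 and IL9, also dim, went the other way. IL7, a survival factor of T cells, stood at 2.35 (SE 1.28) with overlap, at a probe set marked as sharing probes with other transcripts. IL9, of Th9 and mast cell biology, stood at 1.94 (SE 1.0) with 6.95, 6.69 and 7.92 after CET against 3.18, 5.88 and 6.67 after VEH. The remaining IL3, IL4, IL5, IL13 and IL21 ranged from 0.04 to 0.80.

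Their receptors included the subunits of the IL2 receptor. IL2RG, the common gamma chain shared by the receptors of IL2, IL4, IL7, IL9, IL15 and IL21, had 11.03, 11.40 and 11.19 after CET and 10.49, 10.34 and 10.69 after VEH. The groups did not overlap, in a gene that was bright and even within groups (0.70, SE 0.39), though its second probe set gave -0.33. IL2RA, the high-affinity chain of activated and regulatory T cells, was dim, with 7.12, 8.14 and 8.97 after CET and 6.44, 6.08 and 7.23 after VEH (1.49, SE 0.76). The sign of these IL2 receptor chains was thus opposite to that of IL2 itself. IL4R, the IL4 and IL13 receptor chain, had 8.55, 8.73 and 8.26 after CET and 8.91, 9.03 and 9.41 after VEH. It was lower on every CET array (-0.61, SE 0.50). IL13RA1, which pairs with IL4R, had 10.57, 9.05 and 9.82 after CET and 10.28, 11.06 and 10.43 after VEH (-0.78, SE 0.50). IL13RA2, IL9R, IL5RA and IL15RA ranged from -1.26 to 0.55.

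In the interleukin 6 and 12 family, ligands and receptors differed in median (0.61 for 5 ligands and -0.048 for 8 receptors), and no gene reached p under 0.05. IL6, which acts on many cells in inflammation, had 9.85, 10.53 and 11.62 after CET and 10.03, 9.25 and 10.90 after VEH (0.61, SE 0.57). Its dim probe set gave 1.51. IL6ST, the gp130 chain of the IL6 receptor, had 8.87, 8.55 and 8.79 after CET and 3.89, 9.49 and 8.37 after VEH. Its 1.48 came from VEH replicate 4 and was -0.20 without that array. IL12B, the chain shared by IL12 and IL23, had 9.05, 9.55 and 9.33 after CET and 7.94, 8.54 and 8.67 after VEH, without overlap (0.92, SE 0.51). IL23A, the other chain of IL23, was dim and lower on every CET array, with 3.93, 4.82 and 5.68 after CET and 6.12, 5.72 and 6.13 after VEH (-1.18, SE 0.83). The chains of IL23 thus had opposite signs. IL23R, the IL23 receptor, had 9.10, 11.11 and 12.20 after CET and 7.60, 9.57 and 10.29 after VEH (1.65, SE 0.82), and its dim probe set gave -0.60.

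IL27 and its receptor also stood on opposite sides. IL27, which restrains effector T cells, had 11.16, 10.90 and 12.14 after CET and 11.29, 9.75 and 10.84 after VEH (0.78, SE 0.51). IL27RA had 8.64, 7.53 and 5.88 after CET and 9.73, 8.69 and 8.39 after VEH, with CET replicate 1 inside the VEH range (-1.59, SE 0.77). Its other probe sets gave -0.32 and 0.81. IL11RA, the receptor chain for IL11, stood at -0.91 (SE 0.60), with 10.34, 9.21 and 7.97 after CET and 10.40, 9.79 and 10.04 after VEH. The second probe set of IL11RA, also above the dim limit, gave 0.73. IL12A, IL6R, IL12RB1, IL12RB2 and IL31RA ranged from -0.47 to 1.32.

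All 6 ligands of the interleukin 10 family were higher on average after CET (median 0.65), where 45.3% of all genes and 68.5% of the cytokine genes were. Of these ligands, 0 reached p under 0.05. IL10, which limits inflammation, had 8.58, 9.82 and 9.05 after CET and 8.01, 7.17 and 8.61 after VEH. CET replicate 1 fell just short of VEH replicate 6 (1.22, SE 0.61), and the second probe set of IL10, also above the dim limit, gave -0.91. IL22, which acts on epithelia, had 7.57, 11.09 and 9.10 after CET and 6.31, 5.93 and 9.18 after VEH (2.11, SE 1.02). Its value was 1.20 without CET replicate 2 and 3.13 without VEH replicate 6, and its dim probe set gave 1.19. IL19, IL20 and IL24, which share a receptor that contains IL20RB, ranged from 0.11 to 0.67, and the dim IL26 stood at 0.63.

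The interferons were few and held the smallest p of all cytokine genes. IFNL1, a type III interferon of barrier tissues and dendritic cells, had 9.5, 9.93 and 10.01 after CET and 8.95, 7.17 and 7.16 after VEH. The CET arrays lay close together and above all VEH arrays, and VEH replicate 4 stood above the other VEH arrays (2.05, SE 0.61, unadjusted p = 0.0059). VEH replicates 5 and 6 lay under the dim limit, so the size of this difference is uncertain. The log2 fold change of IFNL1 was between 1.70 and 2.68 when any single array was left out, and p was under 0.05 in all 15 alternative analyses, at most 0.029. IFNA21, a type I interferon of a family of near-identical genes, was read at a probe set that is marked as shared, with 9.32, 12.55 and 10.12 after CET and 9.33, 8.79 and 8.29 after VEH. CET replicate 1 and VEH replicate 4 were equal and CET replicate 2, whose GAPDH ratio was 143, was far above the rest (1.86, SE 0.73, unadjusted p = 0.027). Without CET replicate 2 it was 0.91, and the dim second probe set gave -2.02, so the values of IFNA21 are uncertain. IFNG, the interferon of T and NK cells, was dim, with 8.01, 5.04 and 6.48 after CET and 6.07, 4.67 and 4.11 after VEH (1.56, SE 0.98). The dim IFNB1 and IFNK, of type I, stood at 0.64 and -1.62.

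Of 6 receptors of the interleukin 10 and interferon families, 4 were higher. IFNLR1, the specific chain of the IFNL1 receptor, was dim, with 7.57, 7.58 and 7.74 after CET and 6.78, 6.57 and 5.98 after VEH. The groups lay 0.79 apart and the CET arrays were nearly level (1.19, SE 0.70). IL20RB was dim, with 6.06, 7.39 and 8.79 after CET and 4.96, 5.35 and 4.67 after VEH, without overlap (2.42, SE 0.89, unadjusted p = 0.019). All VEH arrays and CET replicates 1 and 2 lay under the dim limit, so the size of this difference is uncertain. That p was 0.096 without CET replicate 3 and 0.055 without VEH replicate 6. IL20RA, its partner chain, went the other way, with 5.72, 8.53 and 6.13 after CET and 7.89, 8.35 and 8.22 after VEH (-1.36, SE 0.83). IFNAR2, a chain of the type I interferon receptor, was level, at 9.06, 8.40 and 8.56 after CET and 8.40, 8.84 and 8.95 after VEH (-0.06, SE 0.52). IL10RB, which pairs with IFNLR1 and with IL10RA, stood at 0.38, and the dim IL10RA at 0.66. IL1R1, IFNGR1, IFNGR2 and IFNAR1 were not analysed here.

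The 12 genes of the interleukin 17 family, whose ligands call neutrophils to epithelia, held no gene with p under 0.05. Of the 6 ligands (IL17A, IL17B, IL17C, IL17D, IL17F and IL25) 5 were higher, from -0.29 to 0.83. Of the 6 receptors (IL17RA, IL17RB, IL17RC, IL17RD, IL17RE and IL17REL) 5 were higher, from -0.84 for IL17RA, the common chain, to 0.47. The last class joins IL4I1, an amino acid oxidase named for its induction by IL4 (1.77, SE 0.97, dim), IL34, a ligand of the CSF1 receptor (0.33, dim), and IL16, a ligand of CD4 (0.54, SE 0.47).

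**Figure D5:**
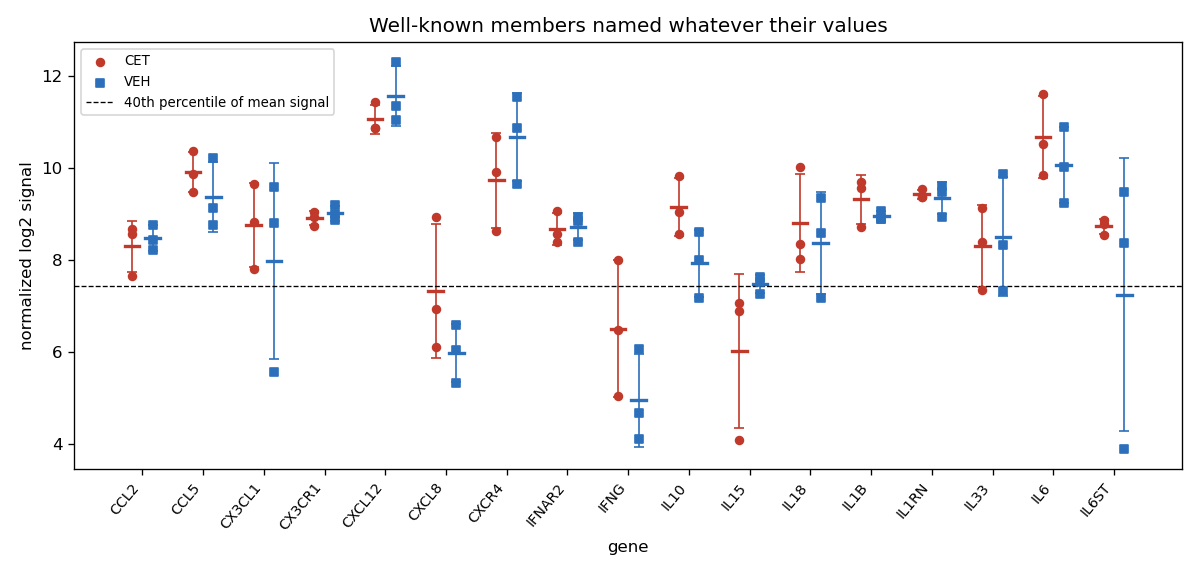
Normalized log2 signal of 17 well-known cytokine genes that were shown whatever their values, for each CET array (red circles) and VEH array (blue squares), with the mean and SD of 3 arrays as bars. The groups overlap in every gene but the dim IL15, and the low VEH points of IL6ST (3.89) and CX3CL1 (5.57) set the means of those genes.

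Genes that act behind these receptors were mixed. Of 16 genes of JAK and STAT signalling, 7 were higher and 9 lower (median -0.13), with 1 higher and 3 lower at p under 0.05, where 2.02% and 3.01% of all genes were. STAT3, the main transcription factor behind IL6 and IL10 receptors, had 5.97, 5.49 and 5.49 after CET and 8.54, 8.65 and 8.39 after VEH. The groups lay far apart (-2.87, SE 0.69, unadjusted p = 0.0015), although the mean over all arrays was under the dim limit and each VEH array was above it. JAK2, a kinase of the gp130 and interferon gamma receptors, was higher, with 10.54, 10.83 and 11.00 after CET and 9.92, 9.38 and 9.04 after VEH, without overlap (1.34, SE 0.44, unadjusted p = 0.010). SOCS2 (-2.67, unadjusted p = 0.021), a feedback inhibitor, and PTPN11 (-0.97, unadjusted p = 0.045), a phosphatase of cytokine receptors, were the others. Of 26 genes known to respond to interferon, 16 were higher and 10 lower (median 0.15), with 0 higher and 1 lower at p under 0.05, beside the same shares of all genes. IFIT1, a sensor of viral RNA, had 6.33, 4.27 and 5.51 after CET and 7.99, 9.31 and 7.94 after VEH (-3.04, SE 0.83, unadjusted p = 0.0034) and was dim over all arrays. OAS1, of the same response, stood at -0.95 (SE 0.50), lower on every CET array.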

How the data were processed

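CL RNA of 3 CET and 3 VEH samples was hybridized to Affymetrix rhesus arrays. The authors summarised probe sets with MAS5 (version not given in the sources used here). The deposited intensity values are linear and had a trimmed mean of 500 on all arrays (highest and lowest 2% left out). Arrays have no read depth, and their number limits the precision. A floor of 1 was set before log2, and arrays were quantile-normalized. Of 52865 probe sets, 158 controls were dropped and 52707 tested with limma 3.58.1 (R 4.3.3), using an intensity trend without covariates, and adjusted over all of them by Benjamini-Hochberg. A single symbol was given for 24956, several for 361 and none for 27390, and the last groups were not named. No scan date was used.

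The members and lists were chosen with earlier results of these data known. Named by rule were 36 cytokine genes: above the dim limit, the 8 smallest p in each direction and the 10 brightest, and a fixed list of well-known genes, of which IL1R1, IFNGR1, IFNGR2 and IFNAR1 have no value here. Of other lists, at most 2 genes each with the smallest p were named. Chosen after their values were seen were 19 cytokine genes (p under 0.15, no overlap, or ligands of CCR7), the genes given only by their class, and SOCS2, PTPN11, ACKR4, CMKLR1 and CCRL2. CD74, CDH5, PECAM1, STAR, HSD3B2, CSF3R, S100A8 and ZAP70 come from the marker lists. The test was checked on simulated data. Alternatives were other normalizations, a pseudocount of 16, dim probe sets left out, no trend, array weights, the methods' t-test, means over probe sets, the 3' to 5' ratio as covariate, and each array left out.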

Additional observations from a re-analysis of the deposited data

How the results depend on the processing

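No adjusted p of a cytokine gene was under 0.05 in any alternative (smallest 0.225). The cytokine median of 0.41 was 0.56 with signals as deposited and 0.23 with means over probe sets, and 0.27 (without CET replicate 2) to 0.41 with 1 array left out. Array medians moved the median of all genes from -0.084 to -0.20, and that of the cytokine genes stayed 0.33 to 0.56 above it in the other normalizations, with means over probe sets, with the covariate and with 1 array left out. The 8 genes higher at p under 0.05 became 13 with the 3' to 5' ratio as covariate and 3 (without CET replicate 3) to 16 (without CET replicate 1) with 1 array left out, and 5 without VEH replicate 5. The 1 lower gene became 0 without the trend and with means over probe sets, 2 with array weights and 2 with the covariate, and 0 (without VEH replicate 4) to 7 (without CET replicate 1) with 1 array left out. At that p, 2.05% of all genes were higher with the covariate, 1.31% without CET replicate 3, 1.37% without VEH replicate 5 and 6.19% without CET replicate 1, where 10.1% were lower (2.41% without VEH replicate 4). With dim probe sets left out, fewer genes were tested: 26 were at least 1.5-fold higher and 1 lower gene had no overlap. With 1 array left out, fewer values had to be apart, and 18 to 32 genes higher and 4 to 13 lower had no overlap, where 7.82% to 15.9% of all genes were higher and 9.37% to 20.7% lower without overlap. For the other shifts the cause was not tested.

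Of 55 named cytokine genes, 42 kept their sign in every alternative. The sign turned with signals as deposited for CCL25 (-0.16), CCL2 (0.025), CX3CR1 (0.062) and IFNAR2 (0.073), with array medians subtracted for IL1RL1 (-0.12), CCL25 (-0.36), IL1R2 (-0.077) and IL1RN (-0.042), with the covariate for CCL25 (-0.058), IL1R2 (-0.073), IL33 (0.40) and IFNAR2 (0.079), and with means over probe sets for IFNA21 (-0.081), CCL28 (-0.060), IL1RL1 (-0.43), CCL25 (-0.67), IL1RN (-0.65) and IFNAR2 (0.14). With 1 array left out it turned for these genes, with ranges of -0.13 to 0.55 for IL1R2, -0.37 to 0.14 for CCL2, -0.81 to 0.47 for IL33, -0.26 to 0.078 for IFNAR2, -0.18 to 0.91 for IL18, -0.20 to 2.53 for IL6ST, -0.36 to 0.82 for IL1RL1, -0.12 to 0.21 for IL1RN, -0.42 to 1.59 for CX3CL1 and -0.026 to 0.40 for CCL25. No paired analysis was possible because the labels number the CET arrays 1 to 3 and the VEH arrays 4 to 6, so the groups share no replicate number. MAS5 signals near the background vary most, and 43 of the cytokine genes lie there.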
